A study of Mus musculus with 4 samples.

Results

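The genes described here encode the machinery that builds ribosomes in the nucleolus of effector T helper cells of the mouse. The list held 40 genes, chosen by name with earlier results of these data known. Counts of members below are therefore descriptions and not independent support. For each gene the probe set that was brightest on average was taken. A probe set named for that gene alone was at hand for 38 of them, out of 18193 genes on the arrays. Npm3, which encodes a nucleoplasmin, and Mrto4, a factor of the large subunit, had none. They have no signals or ratios here but were kept in the promoter search below.

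CD4 T cells were polarized to Th1 or Th17 effector cells over 6 days of culture, and CD30high and CD30low fractions were sorted. CD30 is a member of the TNF receptor family. Th1 cultures contained IL-2, IL-12 and anti-IL-4 antibody, and Th17 cultures contained IL-6, IL-1beta, IL-23, anti-IL-4 and anti-IFN-gamma antibodies. By the methods, the cells carried a transgenic T cell receptor for ovalbumin and were stimulated with ovalbumin peptide on irradiated spleen cells from which T cells had been removed. RNA of Th1 CD30low, Th1 CD30high, Th17 CD30low and Th17 CD30high cells was hybridized to 1 array each. The mice behind each array, the strain and the number of animals pooled are not given in the labels, and all 4 groups are cells grown in vitro. The labels give the starting cells of both CD30low samples as CD44low CD62Llow and those of both CD30high samples as CD44low CD62Lhi, whereas the methods describe CD62Lhigh naive cells throughout. The gate and the labelled starting cells cannot be told apart.

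Ribosome production starts with the transcription of ribosomal RNA by RNA polymerase I in the nucleolus. The precursor is then modified by small nucleolar ribonucleoproteins, of which the box C/D type methylates ribose and the box H/ACA type makes pseudouridine. It is cut and folded by processing factors into the small and the large subunit. Growing lymphocytes need many ribosomes, and the transcription factor MYC is known to raise the expression of this machinery after T cell activation.

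With 1 array per group, no difference between a pair of arrays has a replicate error, and ratios are given as descriptions beside the same measure over all genes. Rules of size were used instead of a test. A gene passed the 1.5-fold or the 2-fold rule when its signals differed by at least that ratio, with signals below 100 set to 100, provided that the higher signal reached 300. Agreement was read between different probe sets of the same gene on the same arrays. Their log2 ratios varied with an SD per probe set of 0.24 for CD30high over CD30low in Th1 cells (3071 genes) and 0.20 in Th17 cells (3010 genes). The SD was 0.30 for Th17 over Th1 among CD30low cells and 0.33 among CD30high cells. This spread holds no error between arrays or between samples. The median signal over all probe sets lay between 62 and 86, and that of the members between 1552 and 2030. No member was below 276 on any array.

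Tnfrsf8, which encodes CD30, was dim, with signals of 13.3, 51.1, 34.9 and 132 in the order Th1 CD30low, Th1 CD30high, Th17 CD30low and Th17 CD30high. This order of arrays is used in all lists of signals that follow. All 7 CD4 T cell marker genes with a named probe set were above 100 on every array. The Y-linked genes Eif2s3y, Kdm5d and Uty passed the 2-fold rule between the lineages, with signals of 309.6 or more in Th1 cells and 21.8 or less in Th17 cells, so that lineage and the sex-linked material of the samples cannot be told apart. In bulk RNA, fewer cells of a kind and less RNA per cell cannot be told apart either.

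The CACGTG E-box, the palindrome bound by MYC with its partner MAX, was searched in RefSeq promoter windows of the members. Each window runs from 250 bases before to 50 bases after a transcript start on GRCm38.p6, and both strands were searched. Windows were at hand for 35 of the 40 members, but not for Npm1, Bop1, Rrs1, Fbl and Rrp12. The E-box was held by 6 of the 35 (17.1%). It was found in 7.15% of all 32851 windows, in 8.09% of all 27025 genes, and in 12.7% of the 6788 genes with a window that reached a signal of 300 on any array. The only E-box upstream of the start was that of Nop2, a ribosomal RNA methyltransferase of the large subunit, with 54 bases between the box and the start. The upstream part of that window, at chr6:125131633-125131882 on the plus strand, is shown with the E-box in capitals.
Nop2: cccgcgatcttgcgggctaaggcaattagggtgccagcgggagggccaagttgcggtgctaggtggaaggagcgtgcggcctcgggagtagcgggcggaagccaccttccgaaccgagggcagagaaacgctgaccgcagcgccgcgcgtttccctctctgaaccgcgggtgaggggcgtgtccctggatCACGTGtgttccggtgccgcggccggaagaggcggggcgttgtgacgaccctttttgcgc

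In the other 5 members the E-box lay within the first 50 transcribed bases. It began at base 35 of the transcript in Grwd1 (shown at chr7:45830740-45830767, minus strand), base 38 in Utp20 (chr10:88826765-88826789, minus strand), base 3 in Pes1 (chr11:3963965-3963994, plus strand), base 25 in Tsr1 (chr11:74898092-74898121, plus strand) and base 18 in Wdr43 (chr17:71616220-71616249, plus strand). The E-box is in capitals, and the flanks of Grwd1 and Utp20 are cut by the end of the window.
Grwd1: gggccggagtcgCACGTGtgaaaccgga
Utp20: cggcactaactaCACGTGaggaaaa
Pes1: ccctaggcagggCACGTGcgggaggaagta
Tsr1: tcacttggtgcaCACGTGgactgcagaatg
Wdr43: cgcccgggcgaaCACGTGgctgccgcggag
None of these E-boxes overlapped another motif searched. The variant E-box CACGCG was held by 9 of the 35 members (25.7%), 9.27% of all windows and 21.4% of the 6788 expressed genes. The motif CCAAT was held by 11 members (31.4%), 37.4% of windows and 43% of expressed genes. The ETS-type motif GGAAGT was held by 17 members (48.6%), 23.8% of windows and 35% of expressed genes. A match of letters is a description and does not show binding.

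The first comparison asked how the nucleolar genes differ by CD30 gate within Th17 cells. Of 38 members, 35 had a ratio above 1, against 51.2% of the 7786 genes that reached a signal of 300 in one of the pair. The median ratio of the members was 1.28 (log2 0.36), while the median log2 ratio of all genes was 0.01. The quartiles of the members were log2 ratios of 0.25 and 0.49, so that most ratios were above 1 and below the 1.5-fold rule. The 1.5-fold rule was passed upward by 4 members, namely Rrp12, Utp20, Polr1a and Gar1, or 10.5% against 9.52% of all genes. It was passed downward by none, against 9.12% of all genes. The 2-fold rule was passed by Rrp12 alone (3.94% of all genes upward and 3.66% downward). The 3 members with a ratio below 1 were Ubtf, Rrs1 and Nop10, against 48.8% of all genes.

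The same comparison in Th1 cells gave smaller values. Of 38 members, 27 had a ratio above 1, against 46.1% of 7813 genes, and 11 had one below 1, against 53.9%. The median ratio was 1.07 (log2 0.10), the quartiles were log2 ratios of -0.03 and 0.31, and the median log2 ratio of all genes was -0.03. Grwd1 and Rrp1b passed the 1.5-fold rule upward (5.26% of members and 4.04% of all genes), none passed it downward (3.57% of all genes), and none passed the 2-fold rule (0.794% upward and 0.486% downward). No member passed the 1.5-fold rule in both lineages, and the share of all genes that did so was not counted. Utp20 came near it, with ratios of 1.497 in Th1 and 1.68 in Th17 cells. A ratio above 1 in both lineages was found for 25 of 38 members and for 28% of the 8227 genes that reached 300 on any array. The CD30 log2 ratio of Th17 cells minus that of Th1 cells was above 0 for 29 members, against 52.4% of all genes, with a median of 0.22 for the members and 0.02 for all genes. Without replicates this difference has no error and was not tested.

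**Figure D1:**
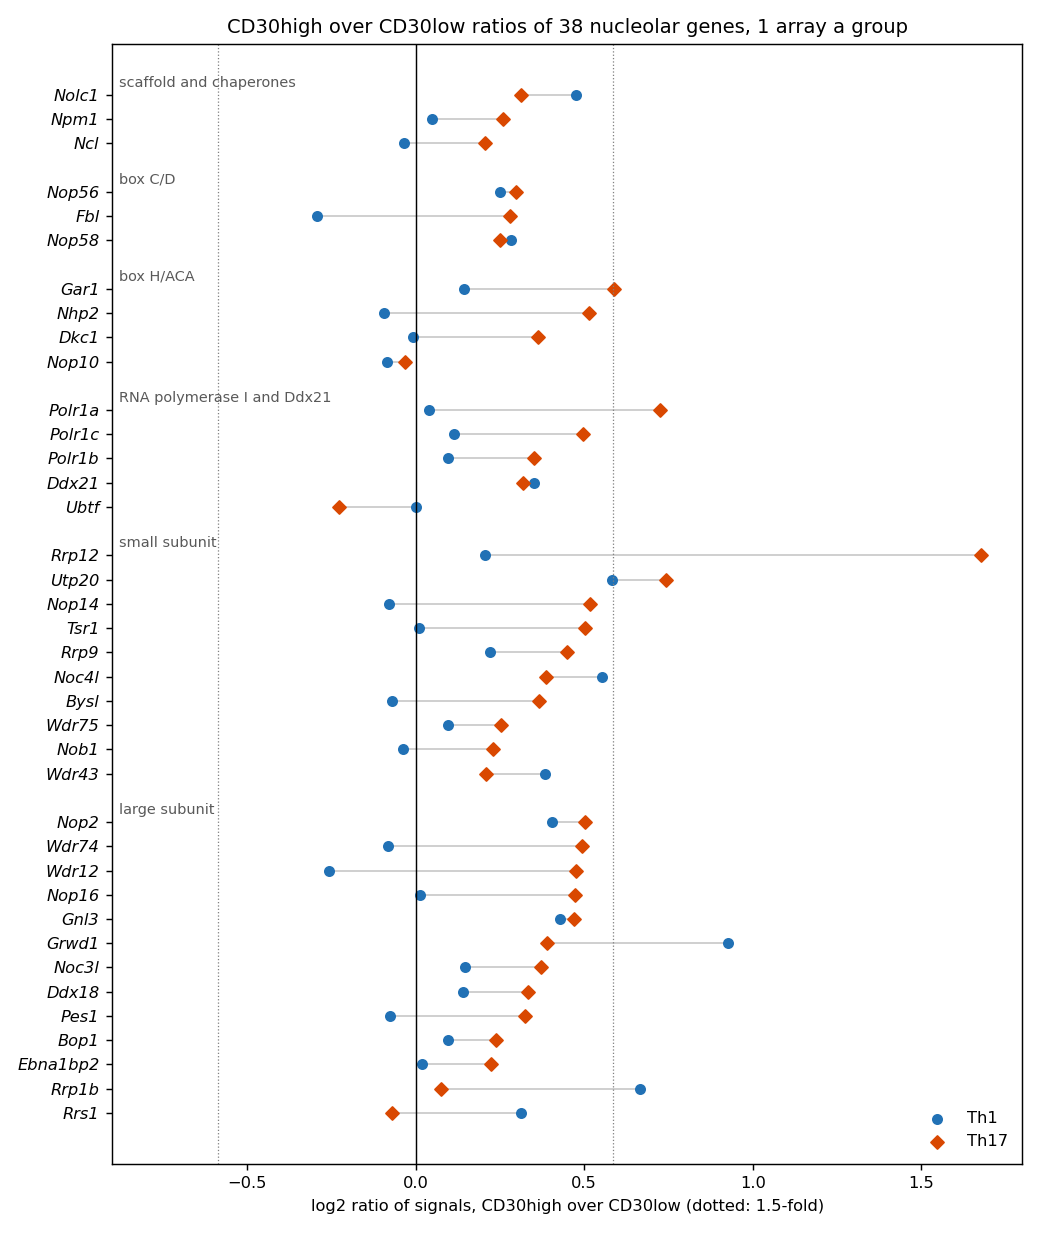
Log2 ratios of signals (x axis, CD30high over CD30low) of the 38 members (y axis, grouped by role) in Th1 (circles) and Th17 cells (diamonds), 1 array per group; grey lines join the values of a gene and dotted lines mark 1.5-fold. In Th17 cells 35 members lie to the right of 0, and in Th1 cells 27.

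The members were brighter than most genes, and a higher limit was also read. With a signal limit of 1000 for members and all genes, a limit added after the values were seen, 27 of 30 members had a ratio above 1 in Th17 cells, against 50.6% of 4581 genes, and 18 of 26 in Th1 cells, against 42.9% of 4451 genes. Other probe sets of the members, which the choice of the brightest had left out, gave a further reading on the same arrays. In Th17 cells 25 of 26 such probe sets, of 19 members, had a ratio above 1, with a median log2 ratio of 0.24, against 47.3% of the second and further probe sets of all genes. The direction was that of the brightest probe set of the gene in 24 of 26, against 78.3% over all genes. In Th1 cells 17 of 27, of 20 members, were above 1 (median log2 ratio 0.13, against 51.2% over all genes), and 14 of 27 had the direction of the brightest probe set, against 65.4% over all genes.

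Among the scaffold proteins of the nucleolus, the signals of Npm1, a chaperone of histones and ribosomal proteins, were 37782, 39057, 27790.5 and 33291. Those of Ncl (nucleolin), which binds ribosomal DNA and precursor RNA, were 23973, 23393, 18287 and 21108. Both were brighter on the Th1 arrays than on the Th17 arrays, and both had a CD30 ratio near 1 in Th1 cells (1.03 and 0.976) and slightly above it in Th17 cells (1.2 and 1.15). Nolc1, a chaperone of small nucleolar ribonucleoproteins, ran the other way between the lineages, with 1771, 2462, 2657 and 3299.95. Its CD30 ratio was 1.39 in Th1 and 1.24 in Th17 cells, while other Nolc1 probe sets had 1.14 and 1.20 in Th1 and 1.18 and 1.20 in Th17 cells.

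By the brightest probe sets, the 3 listed core proteins of the box C/D particle differed in Th1 cells. Fbl (fibrillarin), the methyltransferase, had signals of 8067, 6593, 7647 and 9279, so that it was lower in the CD30high array of Th1 cells (ratio 0.817) and higher in that of Th17 cells (ratio 1.21). Another Fbl probe set had 6682 and 6478 in the Th1 arrays (ratio 0.969) and a ratio of 1.22 in Th17 cells. Nop56 had 3370.4, 4009, 4636 and 5696, and Nop58 had 2976, 3622, 5154 and 6132. In these probe sets the CD30 ratios of the paired scaffold proteins lay between 1.19 and 1.23 in both lineages, and both genes were brighter on the Th17 arrays. Another Nop56 probe set had 3148, 4071, 2963 and 3878, with CD30 ratios of 1.29 and 1.31 but with Th17 below Th1 at both gates.

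Of the 4 box H/ACA proteins, Gar1 had signals of 2646, 2921, 2782 and 4182, just past the 1.5-fold rule in Th17 cells. Nhp2 had 5985, 5606, 5085 and 7266. Dkc1 (dyskerin), the pseudouridine synthase, had 5077, 5049, 4852 and 6236. In these probe sets the Th17 CD30high array was the highest, and the other 3 arrays lay closer together. This did not hold for all probe sets, since another Nhp2 probe set had 3155, 3948, 2872 and 4117, with a CD30 ratio of 1.25 in Th1 cells. The fourth, Nop10, did not follow them in the CD30 comparison, with 7432, 7013, 8829 and 8639, although another of its probe sets had 3717 and 4387 in CD30low and CD30high Th17 cells. Another Dkc1 probe set had 2307, 3753, 2279.7 and 2622, highest on the Th1 CD30high array (Th1 CD30 ratio 1.63), where the brightest had a ratio of 0.995, and one more had 2548 and 2627 in the Th1 arrays. The median log2 ratio of the 4 proteins was 0.44 in Th17 and -0.05 in Th1 cells.

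Polr1a, the largest subunit of RNA polymerase I, had signals of 500.1, 514, 294 and 486. It was low on the Th17 CD30low array only, which gave a CD30 ratio of 1.65 in Th17 cells, but another probe set above background had 426 and 471 there (log2 ratio 0.15). The second largest subunit, Polr1b, had 457, 489, 465 and 593. Polr1c, shared with RNA polymerase III, had 2105, 2280.2, 2097 and 2956. Ubtf, which encodes the factor that holds ribosomal DNA open and recruits the polymerase, went against the subunits, with 1363, 1364, 1350.3 and 1154 (CD30 ratio 0.855 in Th17 cells). Its other probe set had 648 and 606 in the Th17 arrays and 433 and 338 in the Th1 arrays. The helicase Ddx21, which links transcription of ribosomal RNA to its processing, had 1918, 2447, 1864 and 2327, with a CD30 ratio of 1.28 in Th1 and 1.25 in Th17 cells; another probe set had 1097, 1001, 1050.96 and 1632 on the 4 arrays.

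All 10 members that act on the small subunit had a ratio above 1 in Th17 cells (median log2 ratio 0.42), against 51.2% of all genes. In Th1 cells 7 had one (median 0.15), against 46.1% of all genes. Rrp12, a HEAT-repeat factor of pre-ribosome maturation and export, had signals of 378, 437, 404 and 1293. The Th17 CD30high array stood alone, 3.2-fold above Th17 CD30low and 2.96-fold above Th1 CD30high cells, while the other 3 arrays differed by less than the 1.5-fold rule. Rrp12 had no second probe set. Utp20, a large scaffold of the small subunit processome, had 453, 678, 775 and 1299, with CD30 ratios of 1.5 in Th1 cells, just short of the rule, and 1.68 in Th17 cells. It also had a single probe set. Noc4l had 759, 1113, 1258 and 1644, and its CD30 ratios were 1.47 in Th1 and 1.31 in Th17 cells. Other Noc4l probe sets had ratios of 1.16, 1.14 and 1.21 in Th1 and of 1.18, 1.11 and 1.31 in Th17 cells.

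Nop14 had signals of 639, 605, 558 and 799, with CD30 ratios on either side of 1 in the lineages. Tsr1, a GTPase-like factor of late small subunit maturation, had 3026, 3050.25, 3137 and 4442, highest on the Th17 CD30high array alone. Bysl (bystin), a factor of late small subunit maturation, had 747, 712, 848 and 1093. Nob1, the nuclease that makes the final cut of the small subunit RNA, differed little, with 951, 927, 808 and 946. The WD-repeat protein Wdr43 had 2332, 3041, 2317 and 2679, and its CD30 ratio was larger in Th1 (1.3) than in Th17 cells (1.16). The remaining Rrp9 and Wdr75 had CD30 ratios of 1.16 and 1.07 in Th1 cells and 1.37 and 1.19 in Th17 cells.

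Of 13 measured large subunit members, 12 had a ratio above 1 in Th17 cells (median log2 ratio 0.37), against 51.2% of all genes. In Th1 cells 10 had one (median 0.14), against 46.1% of all genes. Grwd1, a WD-repeat histone-binding factor, had the highest CD30 ratio in Th1 cells, with signals of 360.1, 684, 497 and 651 (1.9-fold). Another Grwd1 probe set had 410 and 484 in the Th1 arrays (ratio 1.18). Rrp1b, a partner of a nucleolar phosphatase, had 1254, 1989.7, 1968 and 2075, with a Th1 CD30 ratio of 1.59. The Th1 CD30low array alone was low here, and other Rrp1b probe sets had 911 and 1072 and 640.2 and 734 in the Th1 arrays. Both calls in Th1 cells rest on the brightest probe set.

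The PeBoW complex, which is needed to cut the precursor of the large subunit RNA, consists of Pes1, Bop1 and Wdr12. Wdr12 had signals of 1709, 1431, 1029 and 1431, with a CD30 ratio of 0.837 in Th1 and 1.39 in Th17 cells. Pes1 had 1405, 1335, 1302 and 1629.6, and Bop1 had 641, 685, 719 and 849. The 3 partners had CD30 log2 ratios between 0.24 and 0.48 in Th17 cells, while in Th1 cells they lay between -0.26 and 0.10. Gnl3 (nucleostemin), a nucleolar GTPase of dividing cells, had 2445, 3293, 2903 and 4016. Its CD30 ratios were alike in both lineages (1.35 and 1.38), as were those of Nop56, Nop58 and Ddx21 above. Nop2, whose promoter is shown above, had 558, 739, 746 and 1056, with ratios of 1.32 and 1.42. Rrs1, which brings the 5S particle into the large subunit, had 2496, 3102, 2953 and 2814 (CD30 ratio 1.24 in Th1 and 0.953 in Th17 cells), but another probe set had 2389 and 2900.1 in the Th17 arrays. The other 5 members, Nop16, Noc3l, Wdr74, the helicase Ddx18 and Ebna1bp2, had log2 ratios between 0.22 and 0.49 in Th17 cells and between -0.08 and 0.15 in Th1 cells.

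**Figure D2:**
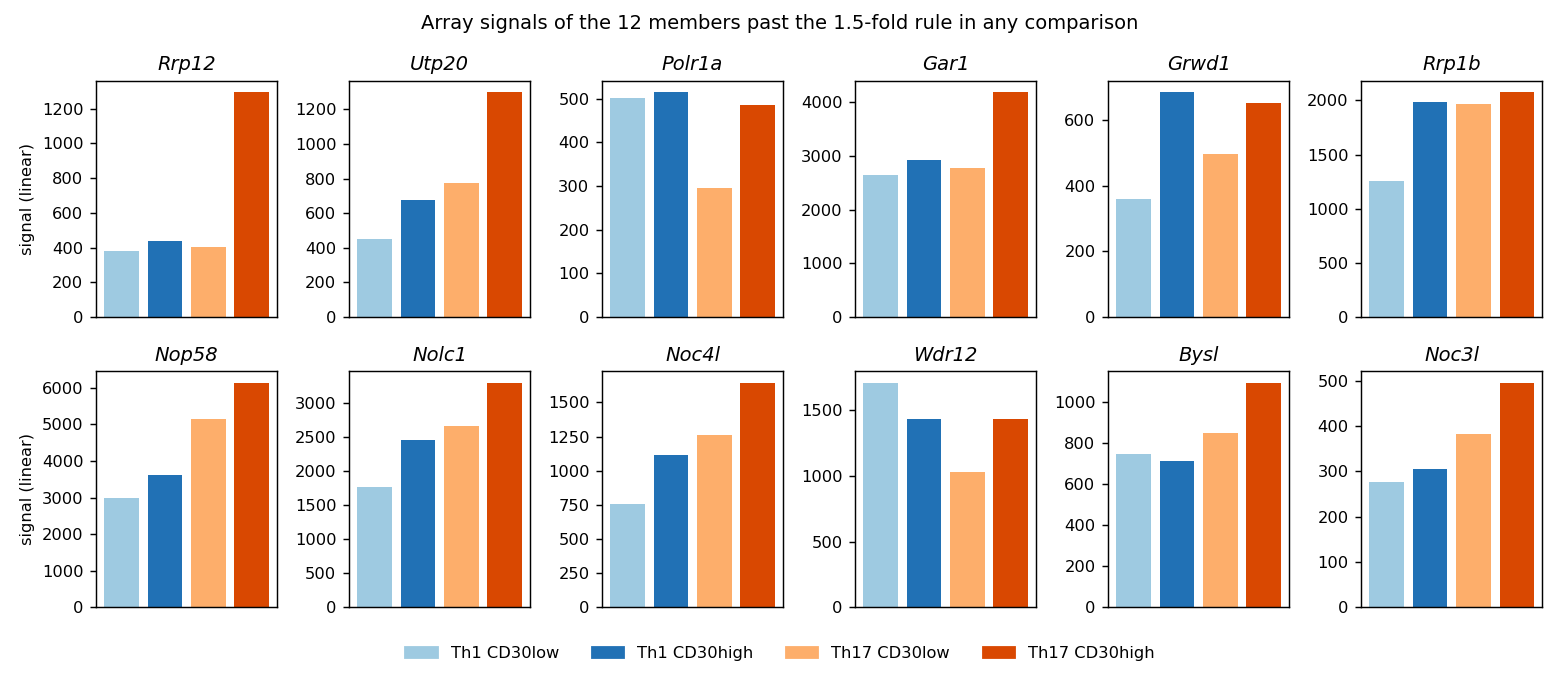
Linear signals (y axis, each panel with its own scale from 0) on the 4 arrays (bars, 1 array per group) of the 12 members past the 1.5-fold rule in any of the 4 comparisons. Rrp12 stands at 1293 on the Th17 CD30high array and between 378 and 437 on the others, and Polr1a is lowest on the Th17 CD30low array.

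Read across the 4 arrays, the Th17 CD30high array gave the highest signal of 27 of the 38 members, against 32.6% of 8227 genes. The lowest signal was on the Th1 CD30low array for 20 members (27.1% of all genes) and on the Th17 CD30low array for 14 (21.7%), whereas the Th17 CD30high array was lowest for 1 (29.6%). The Th1 CD30high array was highest for 7 members (16.3%) and lowest for 3 (21.6%). The CD30low arrays were highest for 3 members in Th1 cells (28.8%) and 1 in Th17 cells (22.4%).

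To ask how the lineages compare at a like CD30 gate, Th17 was set against Th1 cells. These ratios share arrays with the CD30 ratios above and are not independent of them. Among CD30low cells, 22 of 38 members had a Th17 over Th1 ratio above 1, against 50.1% of 7857 genes, and 16 had one below 1, against 49.9%. With the limit of 1000 it was 14 of 26, against 52.1%. The median log2 ratio was 0.06 (0.00 for all genes). The 1.5-fold rule was passed upward by 5 members, Nop58 (1.73-fold), Utp20 (1.71-fold), Noc4l (1.66-fold), Rrp1b (1.57-fold) and Nolc1 (1.5-fold), or 13.2% against 11.7% of all genes. It was passed downward by Polr1a (1.7-fold lower) and Wdr12 (1.66-fold lower), or 5.26% against 13.3%. Other probe sets above background gave Th17 over Th1 ratios of 0.937, 1.16 and 1.37 for Noc4l, 1.05 and 1.17 for Rrp1b, 1.09 and 1.27 for Nolc1 and 1.01 for Polr1a, so that these 4 calls rest on the choice of probe set.

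Among CD30high cells, 29 of 38 members had a Th17 over Th1 ratio above 1, against 53% of 7979 genes, and 9 had one below 1, against 47%. With the limit of 1000 it was 23 of 30, against 56.6%. The median log2 ratio was 0.34 (0.04 for all genes). Upward past the 1.5-fold rule were Rrp12 (2.96-fold), Utp20 (1.92-fold), Nop58 (1.69-fold), Noc3l (1.62-fold) and Bysl (1.53-fold), again 13.2% of members, against 13.6% of all genes. None passed it downward, against 14.9% of all genes. Rrp12 alone passed the 2-fold rule (4.98% upward and 6.86% downward among all genes); among CD30low cells none did (3.53% and 5.83%). By the brightest probe sets the median log2 ratio was 0.51 for the box C/D members and -0.07 for the RNA polymerase I group with Ddx21, but this order turned with the probe set. Other probe sets had log2 ratios of 0.08 for Fbl and -0.07 for Nop56, and of 0.38 for Polr1a, 0.34 for Polr1c, 0.84 for Ubtf and 0.71 for Ddx21. No difference between roles is read from these arrays.

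**Figure D3:**
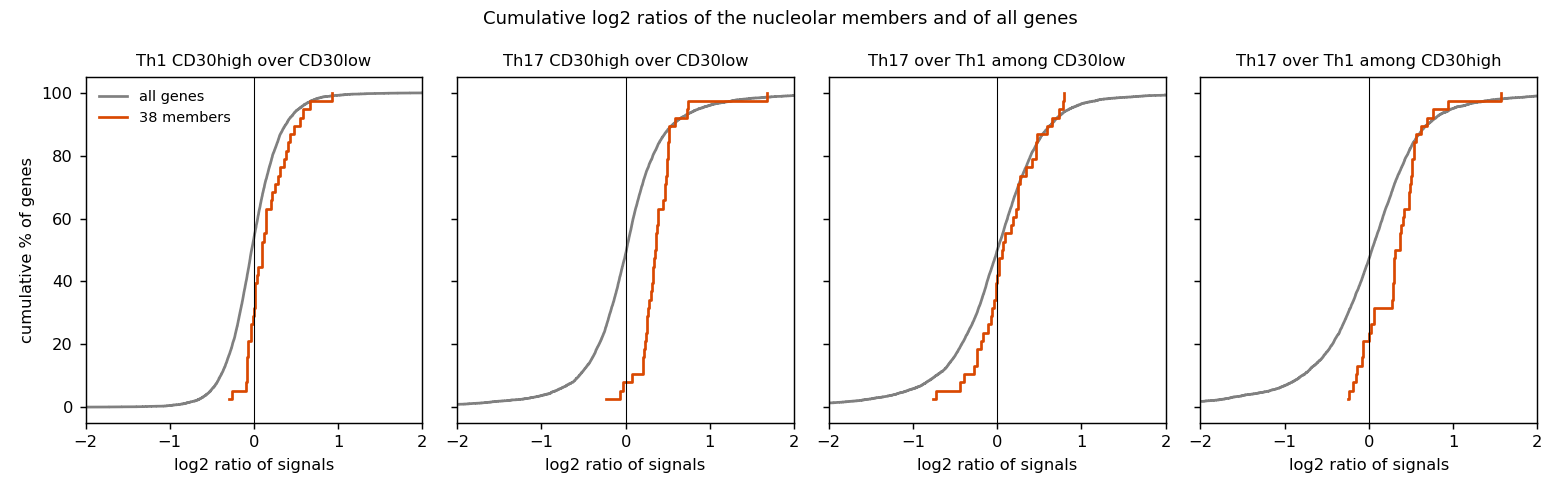
Cumulative share of genes (y axis, %) by log2 ratio of signals (x axis) for the 38 members (orange) and all genes that reached 300 in one of the pair (grey), 1 panel per comparison; values beyond 2 on either side are not drawn. The member curve is shifted to the right of the grey curve in Th17 CD30high over CD30low (medians 0.36 and 0.01) and lies near it in Th17 over Th1 among CD30low cells (0.06 and 0.00).

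An additive limma fit of lineage and CD30 gate over the 8438 genes whose mean signal reached 200 was the only test the design allowed. It has 1 residual degree of freedom per gene and takes the lineages as replicates of the gate. For the CD30 effect common to both lineages, no gene and no member passed an adjusted p of 0.05 (0% of genes in either direction; 866 genes, or 10.3%, had an unadjusted p under 0.05). This effect is the mean of the Th1 and Th17 CD30 log2 ratios given above, so its direction adds no further evidence. It was above 0 for 35 of 38 members, and the share of all genes above 0 was not counted. An unadjusted p under 0.05 was found for 6 of 38 members, all higher in CD30high cells, beside 10.3% of genes. The smallest adjusted p from limma was that of Utp20 at 0.439, for an effect of 0.66 ± 0.17 (SE, log2). For the lineage effect common to both gates, Nop58 was called higher in Th17 cells with an effect of 0.78 ± 0.12 (SE, log2) and a limma adjusted p of 0.0494, and no member was called lower. The background was 1.56% of genes called higher and 3.19% called lower. The call of Nop58 sits at the limit, and no member was called in 5 of the 9 other settings.

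Other genes of ribosome production were read in the same way. For counts of CD30 ratios above 1 in these and the following lists, the share of all genes was 51.2% in Th17 and 46.1% in Th1 cells. For Th17 over Th1 ratios above 1 it was 50.1% among CD30low and 53% among CD30high cells. In Th17 cells 33 of 41 other small subunit factors and 35 of 37 other large subunit factors had a CD30 ratio above 1, with median log2 ratios of 0.17 and 0.20. The 1.5-fold rule was passed upward by 1 and 5 of them, against 9.52% of all genes, and downward by none, against 9.12%. Pno1, a late small subunit factor, had 1701 and 2839 in CD30low and CD30high Th17 cells, and in the large subunit list Rrp15 had 566 and 936, the helicase Ddx55 305 and 503, Urb2 682 and 1098, and Ppan 645 and 1016. In Th1 cells the medians were -0.02 and 0.03, with 19 of 41 and 21 of 36 ratios above 1, against 46.1% of all genes. Only Riok1, a kinase of the small subunit, passed the 1.5-fold rule there, downward, with 2176 and 1438 (3.57% of all genes).

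Of 15 other genes of RNA polymerase I and its factors, 11 had a ratio above 1 in Th17 cells (median log2 ratio 0.09) and 7 in Th1 cells (median -0.07). The polymerase subunit gene Cd3eap passed the 1.5-fold rule in Th17 cells, with 427 and 777. The RNA exosome, which trims the precursor, had 8 of 13 ratios above 1 in each lineage, with medians of 0.04 in Th17 and 0.12 in Th1 cells. Nucleotide synthesis genes had 15 of 20 ratios above 1 in Th17 cells (median 0.18) and 13 of 20 in Th1 cells (median 0.08).

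The ribosomal proteins, which this machinery assembles, had other values. Cytosolic ribosomal protein genes, of which 43 of 77 listed were bright enough and named for a single gene, had a CD30 median log2 ratio of 0.04 in Th17 cells (31 of 43 above 1) and of -0.11 in Th1 cells (9 of 43). Between the lineages they lay on the other side of 0 from the nucleolar members, with a Th17 over Th1 median of -0.48 among CD30low cells (3 of 42 above 1) and -0.34 among CD30high cells (4 of 43). Rps19, a protein of the small subunit, had 46765, 43009, 30269.6 and 32116. Most of this list was far brighter than the median member. Among CD30low cells the bright members Npm1 and Ncl had Th17 over Th1 log2 ratios of -0.44 and -0.39. Of other bright genes, Nop53 had -0.84, Nsa2 -0.66 and Polr1d -0.63, but the replication genes Pcna and Rrm2 had 0.08 and 0.78. Dimmer ribosomal protein genes varied, with 0.86 for Rps27, 0.60 for Rps25 and 0.01 for Rpl27a. Rpl14 had -0.06, Rps6 -0.19 and Rpl12 -0.39. Whether signal level bears on the contrast was not tested.

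DNA replication genes differed from the members in the lineage with the larger CD30 median. Their CD30 median was 0.27 in Th1 cells, with 32 of 33 ratios above 1, and -0.15 in Th17 cells, with 9 of 34. Mcm6, a subunit of the replicative helicase, had 4784 and 8428 in the Th1 arrays. Rfc3, a subunit of the clamp loader, had 2034 and 6644 in the Th17 arrays and was the only gene of the list past the 1.5-fold rule upward there, while Tyms, with 467 and 265, was the only one downward. Among CD30low cells the Th17 over Th1 median was 0.65, with 22 of 34 genes past the 1.5-fold rule upward, against 11.7% of all genes. The nucleolar members, in contrast, had their larger CD30 median in Th17 cells and their larger lineage median among CD30high cells.

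**Figure D4:**
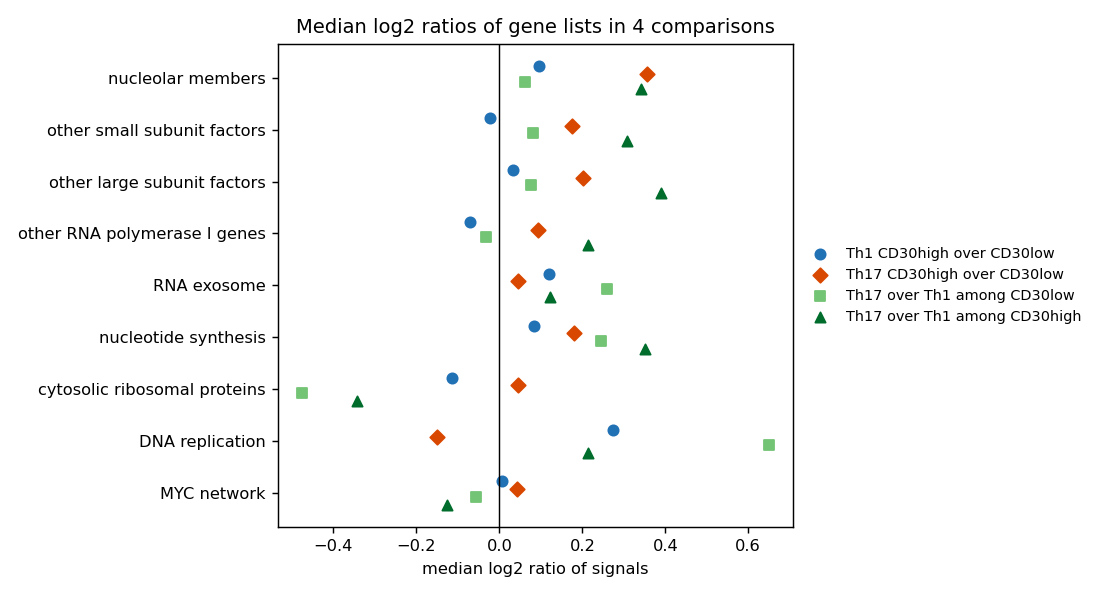
Median log2 ratios of signals (x axis) of the members and 8 other gene lists (y axis) in the 4 comparisons (marker shapes and colours), 1 array per group. In Th17 CD30high over CD30low the members stand at 0.36 and DNA replication at -0.15, and cytosolic ribosomal proteins lie left of 0 in both lineage comparisons (-0.48 and -0.34).

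The MYC network was read because its factors bind the E-box shown above. Myc itself had signals of 2212, 3323, 4539 and 6029.7, with CD30 ratios of 1.5 in Th1 cells, just past the 1.5-fold rule, and 1.33 in Th17 cells, and with Th17 over Th1 ratios of 2.05 and 1.81 in CD30low and CD30high cells. Mycn, a second MYC family gene, had 335, 674, 143 and 1490.1. Both were highest on the Th17 CD30high array, as were 27 of the members, but Mycn was lowest on the Th17 CD30low array and Myc on the Th1 CD30low array. Mycl was below 100 on all arrays. The antagonist Mxi1 had 2689, 3909, 4653 and 7945, in the same order of arrays as Myc.

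Other antagonists differed. Mxd3 had 1013, 1018, 1710.3 and 782, and Mxd4 had 1188, 792, 563 and 726. Max, the shared partner of MYC and its antagonists, was lowest in Th17 CD30high cells, with 839, 783, 808 and 505. Of 11 genes of the network that reached 300, 2 passed the 1.5-fold rule upward in Th17 cells (Mycn and Mxi1; 9.52% of all genes) and 2 downward (Max and Mxd3; 9.12%). In Th1 cells Myc and Mycn passed it upward (4.04%) and Mxd4 downward (3.57%). Whether these levels bear on the nucleolar members was not tested.

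**Figure D5:**
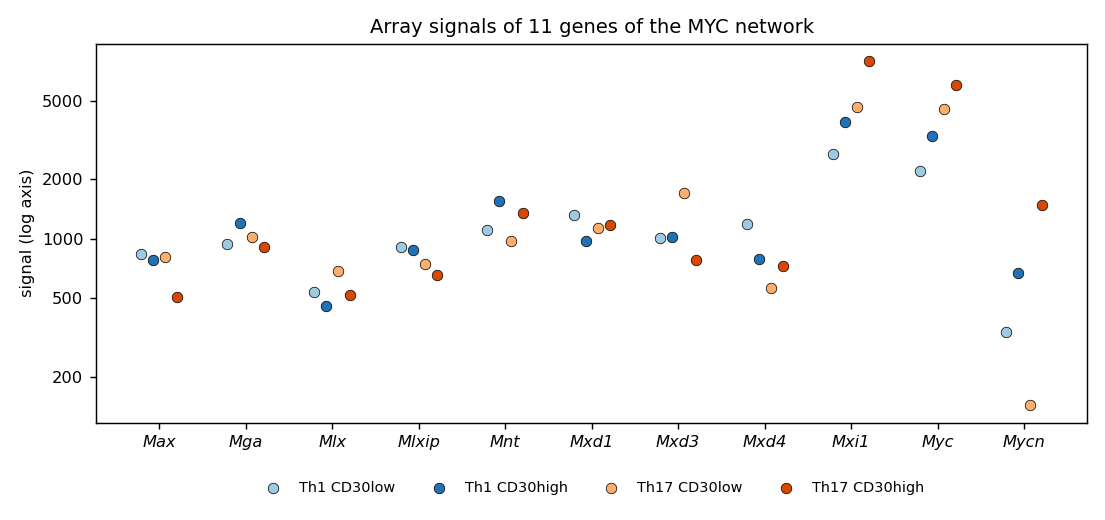
Signals (y axis, log axis) of 11 genes of the MYC network (x axis) on the 4 arrays (colours, 1 array per group); levels may be compared between arrays for a gene and not between genes. Myc and Mxi1 run in the order Th1 CD30low, Th1 CD30high, Th17 CD30low, Th17 CD30high, and Mycn spans 143 to 1490.1.

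Markers of T cells and of other cells moved between the same Th17 arrays. All 7 measured T cell markers had a CD30 ratio below 1 in Th17 cells (median log2 ratio -0.47), against 48.8% of all genes. Their summed signal was 61545 in CD30low and 42688 in CD30high Th17 cells. In Th1 cells the sums were 79669.7 and 65198, with 5 of 7 below 1, against 53.9% of all genes. Of 5 fibroblast markers, 2 were above 100 in each Th17 array and none in the Th1 arrays. Their summed signal was 1027 in CD30low and 7746 in CD30high Th17 cells, nearly all from Lum and Dcn, while the collagen genes Col1a1, Col1a2 and Col3a1 were below 100 on all arrays. Of 6 myeloid markers, 3 were above 100 in CD30low and 4 in CD30high Th17 cells, with sums of 7544 and 2155, mostly from S100a8 and S100a9. The 4 B cell markers summed to at most 301 on any array, and the 4 NK and CD8 markers to 6986, 4954, 857 and 598 on the 4 arrays. The part of these cells in the nucleolar ratios was not tested.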

How the data were processed

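The 4 effector T helper cell populations were measured on 1 Affymetrix mouse genome array each. The intensity values deposited by the authors are linear probe set signals, credited to GeneChip Operating Software in the methods and to Affymetrix Expression Console in the submitters' processing notes; version, summary algorithm and scaling target are not given in the sources used here. Each array had a trimmed mean of 497, leaving out 2% of probe sets at either end. Arrays scaled to a common target look like this, and such scaling would hide a change common to most genes. The table used here held 45037 probe sets and no detection calls. Groups came from the sample titles, and the number of arrays limits the precision.

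Probe sets with a single symbol (34945, of which 34741 were matched by gene identifier to a GRCm38.p6 RefSeq table) were assigned to genes, and the brightest over the 4 arrays was kept. Log2 ratios, with signals below 100 set to 100, were read against a signal limit of 300. The additive limma fit (variance trend, Benjamini-Hochberg) was also run on simulated data. These held random noise and a gate effect, but no difference of that effect between lineages. In the real data such a difference is part of the residual, so the run does not judge the fit here. Lists held 295 entries, of which 42 were not named; all 40 members were open to naming, with signals given for those past a fold rule and at the ends of each role group, and some further members and genes were named after their values were seen. Members and lists were chosen with earlier results of these data known. Alternatives covered the floor, scaling, probe set choice, signal limits and limma settings. The fit used limma 3.58.1 in R 4.3.3, the ratios pandas 2.3.3 and numpy 2.4.6 under Python 3.11.15, and plots matplotlib 3.10.9.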

Additional observations from a re-analysis of the deposited data

Results flagged for a closer look

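Fbl and Wdr12 had CD30 ratios on opposite sides of 1 in the lineages. Each log2 ratio exceeded the SD per probe set, 0.24 in Th1 and 0.20 in Th17 cells, which holds no error between arrays. The share of all genes past this rule was not counted, so these members have no background. Fbl had log2 ratios of -0.29 in Th1 and 0.28 in Th17 cells, a difference of 0.57, and its other probe set had -0.04 and 0.28. Wdr12 had -0.26 and 0.48, a difference of 0.73, and its other probe set had 0.13 in Th1 cells and was below a signal of 300 in Th17 cells. Neither difference was tested, since each rests on 1 array per group.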

How the results depend on the processing

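The medians of the members kept their side of 0 in all alternatives run. They ranged from 0.07 to 0.12 for the CD30 ratio in Th1 cells and from 0.29 to 0.36 in Th17 cells, from 0.03 to 0.06 and from 0.29 to 0.38 for Th17 over Th1 among CD30low and CD30high cells, and from 0.18 to 0.22 for the difference of the CD30 ratios. With the mean of all probe sets, 1 member passed the 1.5-fold rule upward in Th1 cells, and 2 upward and 0 downward for Th17 over Th1 among CD30low cells. With a signal limit of 600, or of 1000 (added after seeing the data), 1 passed downward there, and with 1000 also 1 upward in Th1 cells. These limits test fewer genes; for the probe sets the cause was not tested. Noc4l reversed for Th17 over Th1 among CD30low cells with the brightest probe set without a suffix (log2 ratio -0.094). The lineage effect in limma called 0 members higher with a floor of 200, median centring, the mean of all probe sets, no variance trend or a mean signal of at least 500, and 2 with quantile normalization. The other counts stayed within 1.5 times. The additive limma fit compares the gates within each lineage. No fit with a replicate block could be made, since the labels carry no replicate numbers and each group has 1 array.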
